A study of Mus musculus with 6 samples.

Results

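A set of 32 genes of the peroxisome was followed in the livers of mice given DDC, and all 32 had an entry among the 22183 gene symbols of the deposited count table. They were chosen by symbol as 13 peroxins, 6 membrane proteins and transporters, and 13 oxidation enzymes, a rule that uses no measured value. Liver RNA from 6 samples was sequenced, of which 3 carried the label PBS and 3 the label DOX (sample titles S2W-PBS and S2W-DOX). All 6 samples, controls included, had the genotype BucheKI/KI-Hep and the label DDC treatment, and the series describes BUCHE as overexpressed in hepatocytes. DDC commonly stands for a toxin that disturbs haem synthesis and damages bile ducts. DOX commonly means doxycycline, the inducer of many transgene systems. Neither name is spelled out in the labels, nor is the prefix S2W. No source used here states the age or sex of the animals or the promoter that drives the knock-in. The design compares livers with and without the DOX label under the same injury, so raised butyrylcholinesterase and the DOX agent itself cannot be told apart.

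Peroxisomes are small single-membrane organelles that are abundant in hepatocytes. They shorten very long, branched and dicarboxylic fatty acids, finish the side chain of bile acids, and break down the hydrogen peroxide that their oxidases make. Peroxins build the organelle and import its enzymes from the cytosol, while the enzymes carry the chemistry. In rodent liver the nuclear receptor PPAR-alpha raises several of the enzymes and makes peroxisomes multiply.

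The promoters of the genes at the centre of the comparison are shown first, because Acaa1a and Acaa1b encode nearly the same enzyme yet had fold changes of different size, and Ehhadh acts in the step before them. RefSeq promoter windows of the assembly GRCm38.p6 were found for 26 of the 32 genes, as 31 windows of 300 bases, from 250 before to 50 after a transcription start. For each of the following genes the 250 bases before the start are printed 5′ to 3′ on the gene's strand. Capitals mark the CCAAT box, a common promoter element, read on either strand (CCAAT or ATTGG).
Ehhadh (chr16:21787835-21788084, minus strand): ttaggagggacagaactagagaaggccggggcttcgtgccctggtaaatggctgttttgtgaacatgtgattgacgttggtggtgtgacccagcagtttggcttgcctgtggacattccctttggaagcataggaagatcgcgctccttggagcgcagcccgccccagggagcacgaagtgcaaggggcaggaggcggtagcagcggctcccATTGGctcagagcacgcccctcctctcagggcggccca
Acaa1a (chr9:119341044-119341293, plus strand): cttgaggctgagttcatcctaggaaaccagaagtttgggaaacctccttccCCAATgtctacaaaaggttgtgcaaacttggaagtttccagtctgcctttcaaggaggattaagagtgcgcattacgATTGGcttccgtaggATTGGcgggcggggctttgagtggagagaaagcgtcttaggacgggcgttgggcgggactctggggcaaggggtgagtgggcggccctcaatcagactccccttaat
Acaa1b (chr9:119157094-119157343, minus strand): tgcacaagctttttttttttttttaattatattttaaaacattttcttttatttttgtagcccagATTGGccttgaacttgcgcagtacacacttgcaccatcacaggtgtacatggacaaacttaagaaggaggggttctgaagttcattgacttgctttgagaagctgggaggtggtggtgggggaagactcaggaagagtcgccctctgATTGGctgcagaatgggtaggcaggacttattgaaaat
Ehhadh and Acaa1b each held an ATTGG that began 38 bases before the start, and Acaa1a held its nearest copy 107 bases before it. The printed Acaa1a window lies inside the GENCODE M21 span of the gene (119339676 to 119350299), so its distances depend on the start used. Positions of this motif were not counted over all windows, and their part in the fold changes was not tested. A CCAAT or ATTGG stood in 53.8% of the 13 enzyme windows, 28.6% of the 14 peroxin windows and 37.4% of all 32851 windows.

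PPAR-alpha binds a direct repeat of AGGTCA spaced by 1 base, and that repeat was searched on both strands with any letter at the spacer. No window of these genes held it with at most 1 mismatch, against 0.554% of all windows. With at most 2 mismatches it stood in windows of Cat and Acox2, 6.45% of the 31 windows against 3.86% of all windows. The Cat match lies 204 bases before the start and is shown in capitals, which here mark only that repeat.
Cat (chr2:103485154-103485403, minus strand): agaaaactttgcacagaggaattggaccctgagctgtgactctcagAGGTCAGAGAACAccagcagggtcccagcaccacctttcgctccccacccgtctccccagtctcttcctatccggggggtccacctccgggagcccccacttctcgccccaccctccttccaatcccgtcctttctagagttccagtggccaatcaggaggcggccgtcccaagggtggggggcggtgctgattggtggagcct
Cat was lower and Acox2 higher in DOX livers. These are matches of letters within short windows, and binding was not measured.

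Library totals ranged from 32476725 to 41921404 counts, and 14681 genes, all 32 of the set among them, passed the filter on low counts. Levels are normalised read counts (CPM: counts relative to the library total after TMM scaling, which corrects for the make-up of each library), given with their SD over 3 libraries a group. Each gene was tested with edgeR's quasi-likelihood test, and called at a Benjamini-Hochberg adjusted p under 0.05 over all 14681 genes. The labels do not say whether each sample is its own animal. The p-values therefore rest on sample-to-sample spread that may be technical. Bche, the gene of butyrylcholinesterase, stood at 177, 177 and 206 CPM in PBS 1 to 3 and at 1938, 1867 and 1763 CPM in DOX 1 to 3, a 9.94-fold rise (adjusted p = 1.65e-07), so every library labelled DOX was higher. Mitochondrially encoded genes took 3.45 to 4.58% of counts in PBS and 5.11 to 6.81% in DOX libraries; their part in the results was not tested.

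Of the 32 genes, 12 fell and 7 rose in DOX livers, while 13 did not pass the test. That is 37.5% lower and 21.9% higher, against 14.0% and 13.5% of all genes tested, or 27.5% in either direction. Scaling by library size alone put the median log2 fold change of all genes at -0.16. It left 4 members higher in place of 7 and 15 lower in place of 12, and higher calls were then 23.1% of all calls in place of 48.9%. Falls of at least 2-fold were called for 4 members (4.99% of all genes) and such rises for 1 (2.64%). All DOX libraries lay below all PBS libraries for 16 members (22.3% of all genes) and above them for 9 (21.8%). These include 6 genes that did not pass, Pex19, Slc25a17, Acox3 and Phyh below and Pex7 and Pex14 above. Of the 12 genes that fell, 8 were enzymes, and a further 2 of the 13 enzymes rose. Among the 13 peroxins 2 fell and 3 rose, and among the 6 membrane proteins 2 fell and 2 rose. The median log2 fold change was -0.60 for the enzymes, -0.05 for the peroxins, -0.10 for the membrane proteins and -0.01 for all genes. Genes of a class share the same libraries and are not replicates, so these medians are descriptions, and the difference between classes carries no p-value.

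**Figure D1:**
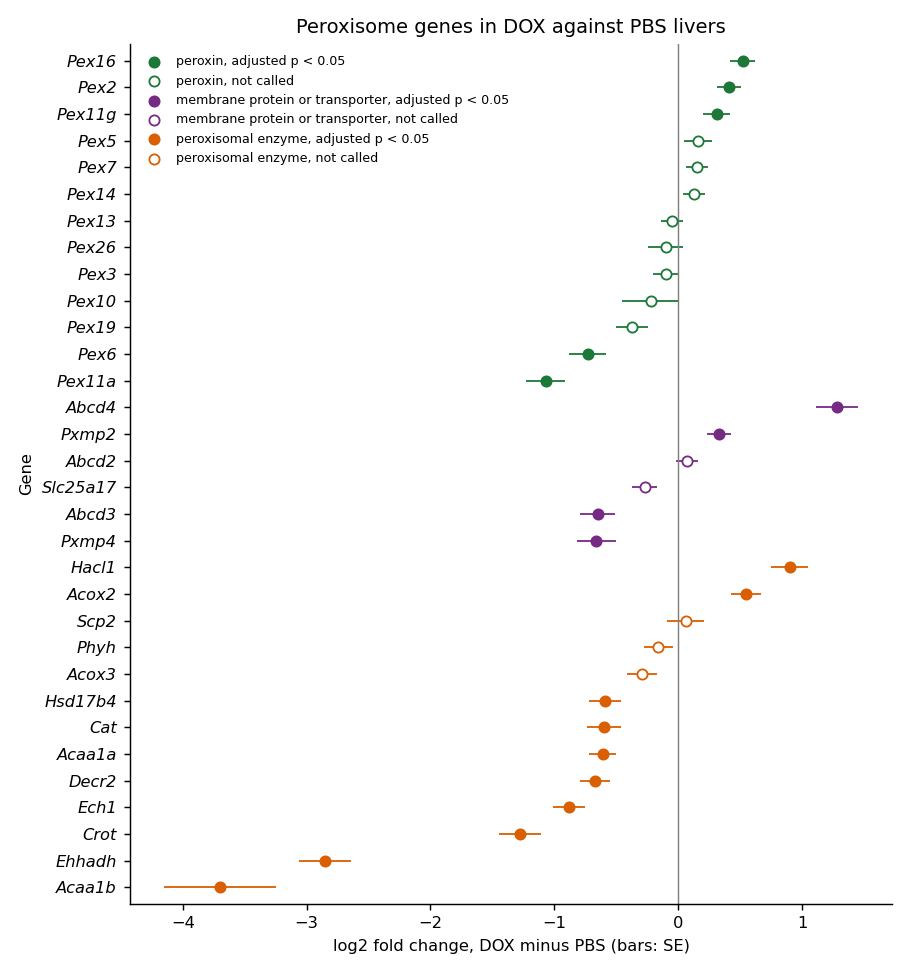
Log2 fold change of each of the 32 genes, DOX minus PBS, with its SE as a bar; colour gives the class, and filled points passed an adjusted p of 0.05 in edgeR. Acaa1b and Ehhadh lie at -3.70 and -2.85, beyond the other enzymes, while the peroxins lie between -1.07 and 0.52.

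Library by library the classes parted in the same way. Taken as the median difference from each gene's PBS mean on the log2 CPM scale, the enzymes stood at -0.59, -0.45 and -0.66 in DOX 1, 2 and 3. The peroxins stood at -0.02, 0.10 and -0.06 in the same libraries. In the PBS libraries the enzymes ranged from -0.07 to 0.09 and the peroxins from -0.05 to 0.04. Thus all 3 DOX libraries lay below all 3 PBS libraries for the enzyme median, and the peroxin medians of the groups overlapped. DOX 2 was the highest of the DOX libraries for 12 of 13 enzymes and DOX 3 the lowest for 9 of them. This order was not counted over all genes.

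**Figure D2:**
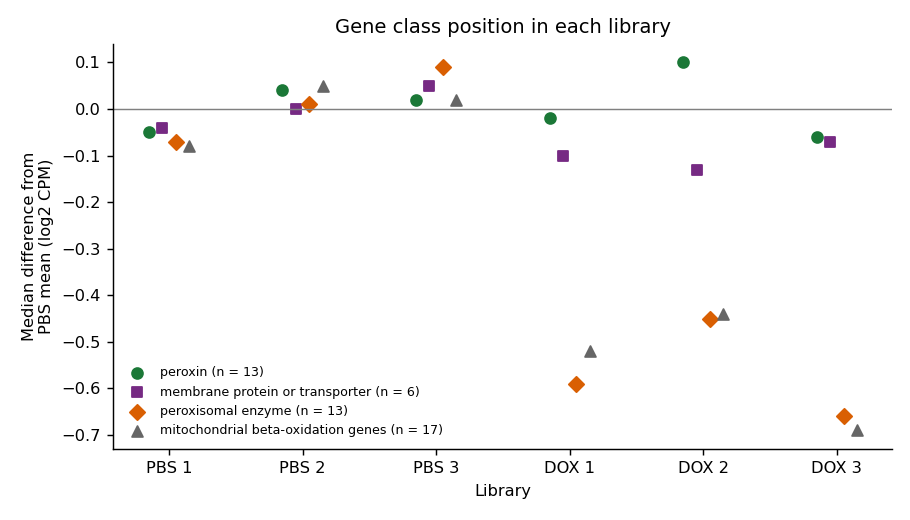
Median difference from the PBS mean (log2 CPM) in each library for the peroxins, membrane proteins, enzymes and 17 mitochondrial beta-oxidation genes. Enzymes and mitochondrial genes sit between -0.69 and -0.44 in the DOX libraries, and peroxins between -0.06 and 0.10.

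Ehhadh and Acaa1b, which act in the classic beta-oxidation spiral for straight-chain substrates, had the largest falls of the 32 genes. Ehhadh encodes the L-bifunctional enzyme, which hydrates and then dehydrogenates enoyl-CoA, and spans positions 21761287 to 21787807 of chromosome 16 (GRCm38). It was measured at 1727, 1407 and 1247 CPM in PBS 1 to 3 and at 213, 251 and 145 CPM in DOX 1 to 3. The groups were far apart, with DOX 3 lowest, and the fall was 7.20-fold (log2 fold change -2.85, SE 0.21, adjusted p = 4.36e-05).

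Acaa1b encodes a thiolase, the enzyme that cleaves acetyl-CoA from the shortened chain, and spans 119148023 to 119157093 of chromosome 9. Its level was 1073, 1084 and 1049.6 CPM in PBS 1 to 3 and 92.1, 118 and 36.1 CPM in DOX 1 to 3. The PBS libraries were almost level, whereas DOX 3 held less than either other DOX library. The fall was 13-fold (log2 fold change -3.70, SE 0.45, adjusted p = 0.00311). Acaa1a, the second thiolase gene, lies on the same chromosome at 119339676 to 119350299. It had 169, 188 and 202 CPM in the PBS libraries against 124, 126 and 118 CPM with DOX, a fall of 1.52-fold (log2 fold change -0.61, SE 0.11, adjusted p = 0.00259).

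Compared per length, as FPKM (counts relative to library total and gene length), Acaa1b exceeded Acaa1a 5.62-, 5.11- and 4.61-fold in PBS 1 to 3. In DOX 1 to 3 the ratio was 0.661, 0.831 and 0.272, so the order of the pair was inverted in every DOX library. The longest coding transcripts of the pair in GENCODE M21 were identical at 95.7% of 1471 aligned bases. Of all 50-base stretches of the Acaa1b transcript, 35.5% occur whole in an Acaa1a transcript. No source used here states how reads that match both were counted, so the split between these genes is uncertain.

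The ancillary enzymes Ech1 and Decr2 fell as well, with fold changes smaller than those of Ehhadh and Acaa1b. Ech1, a dienoyl-CoA isomerase that prepares unsaturated chains, stood at 281, 317 and 290.2 CPM in the PBS libraries against 168, 177 and 137 CPM with DOX (log2 fold change -0.88, SE 0.13, adjusted p = 0.000866). Decr2, the peroxisomal dienoyl-CoA reductase of the same task, stood at 146, 151 and 182 CPM against 87.8, 109.7 and 103 CPM (log2 fold change -0.67, adjusted p = 0.00315). Neither gene had an overlap between the groups.

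Crot, the carnitine octanoyltransferase that readies shortened chains for export to mitochondria, was measured at 265, 325 and 280.4 CPM in the PBS libraries against 107, 153 and 97.8 CPM with DOX. Its fall of 2.44-fold (log2 fold change -1.28, SE 0.17, adjusted p = 0.000572) was exceeded among the enzymes by those of Ehhadh and Acaa1b. Cat, catalase, which removes hydrogen peroxide, went from 1478, 1465 and 1619 CPM to 1071, 1109.6 and 838 CPM (log2 fold change -0.60, SE 0.14, adjusted p = 0.0105). Every DOX library was below every PBS library for both genes.

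Enzymes for branched chains and bile acid side chains did not share one direction. Hsd17b4, the D-bifunctional enzyme that serves these substrates, fell from 422 ± 26.9 to 279 ± 40.9 CPM (SD, n = 3), a log2 fold change of -0.59 at an adjusted p of 0.00721. Acox2, the oxidase of bile acid intermediates and branched chains, rose instead. It stood at 213, 222 and 231 CPM in PBS 1 to 3 and at 311, 364 and 304 CPM in DOX 1 to 3 (log2 fold change 0.55, SE 0.12, adjusted p = 0.00578). Acox3, a second branched-chain oxidase, was low in both groups, at 30.9 ± 1.98 and 25.4 ± 3.03 CPM, and did not pass, with a log2 fold change of -0.29 (adjusted p = 0.0876). It passed in 3 of 14 alternatives, size scaling (0.0155) and limma on filtered log2 FPKM, within 0.0155 to 0.265. Scp2, whose gene encodes a sterol carrier protein and the thiolase for branched chains, had a log2 fold change of 0.06 (SE 0.15, adjusted p = 0.779), which was -0.10 when libraries were scaled by size alone. Its DOX libraries ran from 1645 to 2277 CPM and enclosed the PBS values of 1786 to 1990 CPM.

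Alpha-oxidation removes a single carbon from phytanic acid, a methyl-branched fatty acid that beta-oxidation cannot start on. Hacl1, the lyase of this pathway, rose, with 139, 184 and 199 CPM in the PBS libraries against 301, 370.5 and 303 CPM with DOX (log2 fold change 0.90, SE 0.15, adjusted p = 0.00191). Its lowest DOX library lay well above its highest PBS library. In GENCODE M21, 31.1% of its exon bases are shared with the same-strand gene Gm49387, so part of its count may be assigned either way. Phyh, the hydroxylase that opens the pathway, averaged 726 ± 41.4 CPM with PBS against 651 ± 13.9 CPM with DOX and did not pass (SD, n = 3), a log2 fold change of -0.16 at an adjusted p of 0.338.

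**Figure D3:**
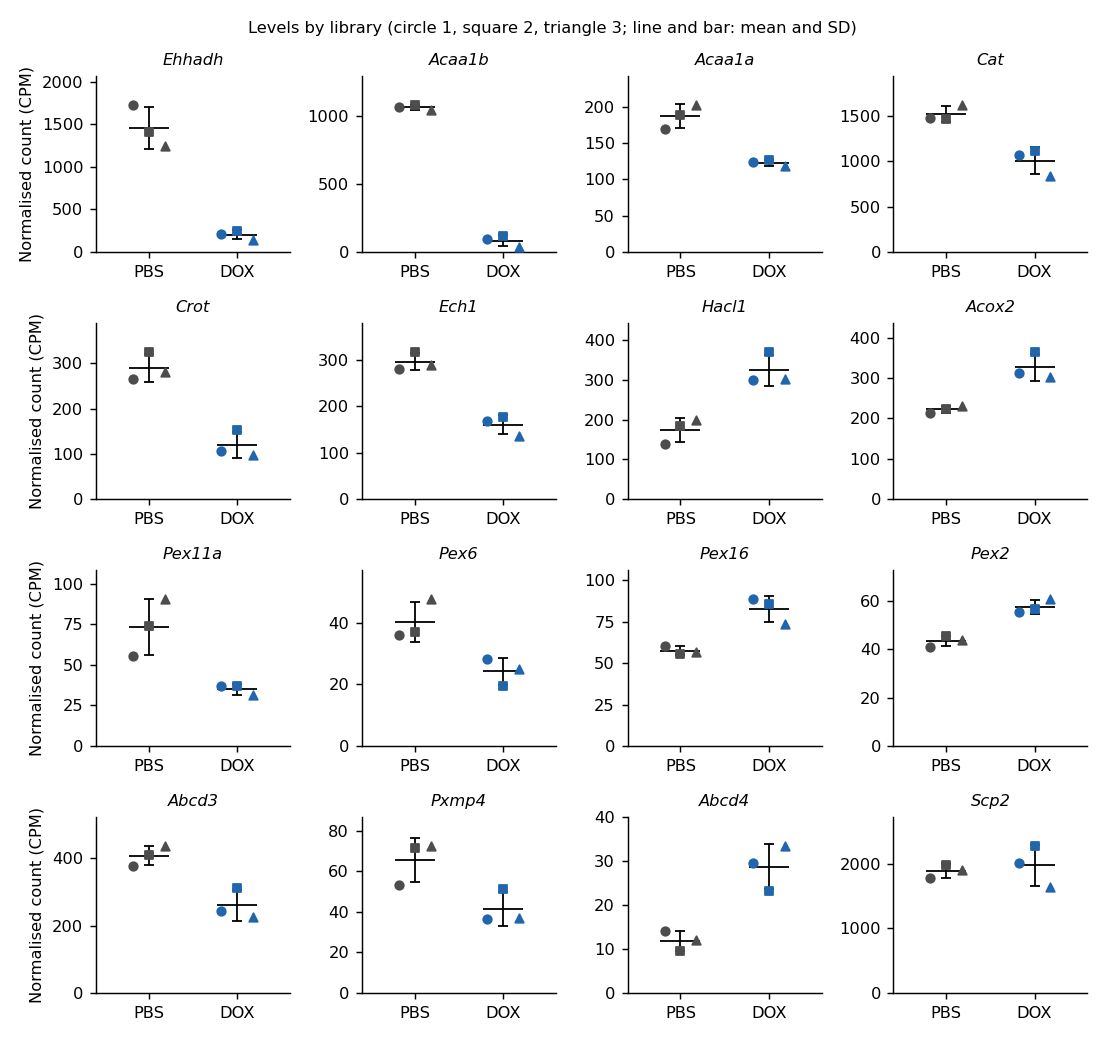
Normalised read counts (CPM, axes from 0) of 16 of the genes in each library, with symbols for libraries 1 to 3 and the mean and SD of each group. Ehhadh and Acaa1b are near the axis in all DOX libraries, Hacl1, Acox2, Pex16, Pex2 and Abcd4 are higher in DOX, and Scp2 overlaps.

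Ehhadh and Acaa1b, the largest falls of the set, together made up most of the net drop in summed mRNA of the 13 enzymes. Summed over the 13 enzymes, the level was 8403, 8489 and 8457 CPM in PBS 1 to 3 and 5438, 6044 and 4656 CPM in DOX 1 to 3. The mean net drop was 3070.3 CPM, and the fall of Ehhadh and Acaa1b equalled 73.1% of it. Higher means of Acox2, Hacl1 and Scp2 in DOX offset part of the falls, so the share of the falls alone is smaller. Together they were 27.2 to 33.3% of the enzyme sum in PBS and 3.88 to 6.11% in DOX libraries. Without them the sum was 5920.4 ± 287 CPM with PBS and 5094 ± 601 CPM with DOX (SD, n = 3), and DOX 2, at 5675 CPM, lay above PBS 1, at 5602 CPM. The summed peroxin level was 729.6 ± 37.1 CPM with PBS and 709 ± 37.6 CPM with DOX.

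Measured per length, the enzymes were the abundant part of the set. Their median was 166 FPKM in PBS and 83.1 FPKM in DOX livers, against 16.6 and 14.2 FPKM for the peroxins. Scp2 had the highest FPKM in both groups, at 700.2 and 655. Ehhadh went from the 4th to the 9th place of the 32 genes, and Acaa1b from the 5th to the 16th. Hacl1 went from the 13th to the 7th. The lowest level was that of Pex10, at 2.69 and 2.06 FPKM.

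**Figure D4:**
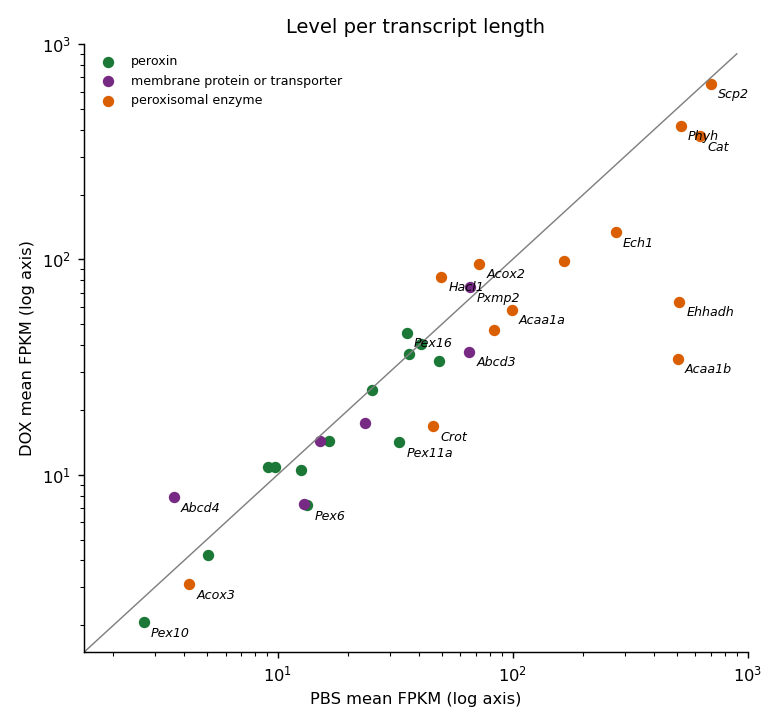
Mean FPKM in DOX against PBS livers for the 32 genes on log axes, coloured by class, with the line of equal level. Ehhadh (513 and 63.4) and Acaa1b (504 and 34.5) lie farthest below the line, and Abcd4 (3.61 and 7.86) lies above it at the low end.

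Among the peroxins, the genes of peroxisome division went in opposite directions. Pex11a, the inducible member of the family that elongates and divides the organelle, was measured at 55.7, 73.8 and 90.4 CPM in the PBS libraries against 37.1, 36.9 and 31.1 CPM with DOX. PBS libraries spread widely, but none reached the DOX range, and the fall was 2.09-fold (log2 fold change -1.07, SE 0.16, adjusted p = 0.0014). Pex11g, its relative, rose slightly, from 28.01 ± 1.69 to 34.8 ± 3.19 CPM (SD, n = 3), a log2 fold change of 0.31 at an adjusted p of 0.0497. That call was the least secure of the set, lost in 11 of 14 alternatives (adjusted p 0.0439 to 0.386), among them leaving out any library but DOX 2 (0.124, 0.0789 and 0.161 when PBS 1, 2 or 3 was dropped, and 0.162 and 0.0574 when DOX 1 or 3 was). In GENCODE M21, 41.1% of its exon bases lie under the opposite-strand gene Gm44775, and no source used here states whether counting used strand.

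Matrix enzymes are carried in by the receptors Pex5 and Pex7. Pex5 averaged 115 ± 9.07 CPM with PBS against 129 ± 11.6 CPM with DOX, and Pex7 averaged 72.9 ± 2.70 and 80.7 ± 4.07 CPM (SD, n = 3 each). Neither passed, with log2 fold changes of 0.16 and 0.15, and that of Pex7 was -0.01 when libraries were scaled by size alone. The docking proteins Pex13 and Pex14, at which the loaded receptors arrive, had log2 fold changes of -0.05 and 0.13 (-0.03 for Pex14 scaled by size alone) and did not pass.

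Receptors are then marked with ubiquitin and pulled back out of the membrane. Pex2, a ring-finger ubiquitin ligase subunit, stood at 40.9, 45.3 and 43.8 CPM in the PBS libraries against 55.2, 56.4 and 60.7 CPM with DOX, and rose with a log2 fold change of 0.41 (SE 0.10, adjusted p = 0.0107). Leaving out PBS 1 put the adjusted p at 0.0526 and scaling by size alone at 0.0822, within 0.00238 to 0.128 over 14 alternatives. Pex10, its partner ligase, averaged 4.18 ± 0.942 CPM with PBS against 3.59 ± 0.706 CPM with DOX and did not pass (SD, n = 3; log2 fold change -0.22).

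Pex6, an ATPase that extracts the receptors, fell from 36.2, 37.2 and 47.8 CPM in PBS to 28.2, 19.5 and 25.1 CPM in DOX libraries (log2 fold change -0.73, SE 0.15, adjusted p = 0.00568). The groups did not overlap, and its lowest DOX library was DOX 2, which was the highest one for 12 of 13 enzymes. Pex26, the membrane anchor of that ATPase, did not pass (log2 fold change -0.10, SE 0.14).

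Pex3, Pex16 and Pex19 insert the membrane proteins of the organelle. Pex16 rose, with 60.5, 55.4 and 56.5 CPM in the PBS libraries against 88.6, 85.5 and 73.6 CPM with DOX (log2 fold change 0.52, SE 0.10, adjusted p = 0.00448). With limma on log2(FPKM + 1) and no filter the adjusted p was 0.0527, the highest of 14 alternatives that began at 0.000196. Pex19, the soluble chaperone, had 138, 148 and 147 CPM in the PBS libraries against 96.1, 136 and 104 CPM with DOX. DOX 2 was close to the PBS libraries, and the test narrowly missed (log2 fold change -0.37, SE 0.13, adjusted p = 0.0569); it passed in 7 of 14 alternatives, among them leaving out DOX 2 (0.00323), in a range of 0.00323 to 0.184. Pex3, the membrane receptor for Pex19, had a log2 fold change of -0.10 and did not pass.

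Of the membrane transporters, Abcd3, an abundant transporter that carries branched-chain and bile acid intermediates, fell from 378, 410.4 and 436 CPM in PBS to 242, 313 and 225 CPM in DOX libraries (log2 fold change -0.65, SE 0.14, adjusted p = 0.00667). Abcd2, which carries very long-chain acyl-CoA, had a log2 fold change of 0.07 (SE 0.09, adjusted p = 0.598), or -0.09 when scaled by size alone. Abcd4 had the largest rise of the set, from 14.1, 9.52 and 12.0 CPM to 29.5, 23.3 and 33.4 CPM (log2 fold change 1.28, SE 0.17, adjusted p = 0.00063). It belongs to this family by sequence, but its protein is known to sit in lysosomes, where it exports vitamin B12, so it is a member by family name. The groups did not overlap for Abcd3 or Abcd4.

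Pxmp4, a small membrane protein, fell from 65.7 ± 10.9 to 41.5 ± 8.39 CPM (SD, n = 3), a log2 fold change of -0.66 at an adjusted p of 0.012. Without DOX 1 its adjusted p was 0.0523, in a range of 0.000496 to 0.0523. Pxmp2, a channel of the peroxisomal membrane, rose from 69.3 ± 3.13 to 87.3 ± 5.33 CPM (SD, n = 3), a log2 fold change of 0.33 at an adjusted p of 0.0249. That call was lost in 8 of 14 alternatives, among them the replicate block (0.0632) and leaving out PBS 1 (0.0955), PBS 2 (0.0926) or DOX 1 (0.0538), and the alternatives spanned 0.0131 to 0.181. Slc25a17, the carrier of coenzyme A and related cofactors, stood at 37.1 ± 1.45 and 30.7 ± 0.419 CPM and missed the threshold (log2 fold change -0.27, adjusted p = 0.0529). It was called lower in 4 of 14 alternatives, size scaling (log2 fold change -0.43, adjusted p = 0.00848) and the 3 with limma, within 0.00848 to 0.172.

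The rest of the peroxisome was read from a second list of 38 genes, of which 35 were tested. Of these, 18 fell and 5 rose (51.4% and 14.3%, against 14.0% and 13.5% of all genes). Their median log2 fold change was -0.40. The share that rose was near that of all genes. Genes that fell included Ddo, which oxidises D-aspartate (-1.26), Nudt7, which cleaves coenzyme A (-0.67), and Hsdl2 (-0.76). Those that rose included Agxt, the glyoxylate-detoxifying aminotransferase (0.74), Gstk1 (0.50), the peroxiredoxin Prdx5 (0.43) and Baat, which joins bile acids to amino acids (0.32). Of this list, 10 fell once PBS 3 was dropped, and 2 rose once PBS 1, PBS 2, PBS 3, DOX 1 or DOX 3 was.

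Mitochondria share the task of beta-oxidation. Of 17 mitochondrial genes of the pathway, 11 fell (64.7%, against 14.0% of all genes) and the other 6 did not pass. Their median log2 fold change was -0.58, near that of the peroxisomal enzymes. Among them, Decr1 (-1.37), Eci1 (-0.82), Slc25a20 (-0.85) and Acadl (-0.62) had the smallest p. At -1.37 the largest fall among these genes was smaller than those of Ehhadh and Acaa1b. The difference between the lists was not tested.

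Ppara, the gene of PPAR-alpha, stood at 165, 187 and 230.3 CPM in PBS and at 70.2, 124.9 and 76.9 CPM in DOX libraries, and fell with a log2 fold change of -1.10 (SE 0.22, adjusted p = 0.0077). DOX 2 was the highest DOX library for Ppara, for 12 of 13 enzymes and for 21 of all 32 members. Those 12 enzymes include Acox2 and Hacl1, which rose. The share of all genes with DOX 2 highest was not counted. Without DOX 2, 2348 of all genes were lower and 2440 higher, in place of 2062 and 1975. A link between Ppara and these genes was not tested. Of 13 receptor and coactivator genes, Rxra, the partner of PPAR-alpha in binding DNA, rose (0.41), as did the coactivator Ppargc1b (1.44). The other 10 did not pass. Those 2 rises were 15.4% of the list, against 13.5% of all genes. Of 18 PPAR-alpha targets outside the peroxisome, 13 fell (72.2%, against 14.0% of all genes) and the other 5 did not pass. Their median was -1.42, and Acot1, Vnn1, Cyp4a31 and Cyp4a10 had the smallest p. Slc25a20 and Cpt1a are in this list and in the mitochondrial one, and both lists were drawn up with earlier results of these data known.

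In bulk tissue, fewer cells of a type and less RNA per cell cannot be told apart. Hepatocyte markers summed to 89800 to 96100 CPM in PBS and 89900 to 116000 CPM in DOX libraries, and of 8 markers Serpina1c and Hnf4a rose and the other 6 did not pass. Most of that sum was Alb, at 70083 to 72445 CPM in PBS and 70899 to 92734 CPM in DOX libraries. Such sums follow their most abundant genes. Stellate and fibroblast markers summed to 1310 to 1580 CPM in PBS and 797 to 1090 CPM in DOX libraries, with 4 of 7 lower. Lymphocyte markers summed to 1.48 to 2.49 and 0.54 to 0.794 CPM, with Nkg7 lower (-1.54) of 2 tested. Nkg7 had only 46, 29 and 36 counts in PBS 1 to 3 and 11, 8 and 11 in DOX 1 to 3. Bile duct markers summed to 774 to 939 and 540 to 794 CPM, with 1 of 6 lower, and macrophage markers to 1240 to 1350 and 1260 to 1310 CPM, with Vsig4 of 7 higher (0.72 on the log2 scale). Most of the bile duct sum was Spp1, at 634 to 765 CPM in PBS and 424 to 634 CPM in DOX libraries. Endothelial markers summed to 147 to 164 and 165 to 203 CPM, and 2 of 6 were higher, Pecam1 (0.69) and Lyve1 (1.25). Neutrophil markers summed to 38.2 to 59.6 and 38.8 to 86.4 CPM. Of 4 tested, Retnlg was higher (1.99) and Csf3r lower (-1.06). Retnlg had only 17, 43 and 18 counts in PBS 1 to 3 and 144, 27 and 80 in DOX 1 to 3, and its groups overlapped. No marker with an entry in the table was at 0 in all libraries. Beside these marker counts, 14.0% of all genes tested were lower and 13.5% higher. The part of these markers in the results was not tested.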

How the data were processed

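The labels' protocols name a Qiagen RNeasy kit for the liver RNA and a SMARTER mRNA-Seq kit for the libraries. The authors deposited unnormalised whole-number counts for each gene symbol and library, and FPKM values beside them. Counts divided by FPKM gave the same gene length in all libraries (relative difference at most 1e-06), so FPKM adds no measurement. The submitters' processing notes list GRCm38, mm10 and hg38 with no role; no source used here states the aligner, counter, annotation or use of strand.

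Columns were matched to samples by title, and 0 were left over. Libraries of a group differed by 30 to 83.9 in chi-square per degree of freedom, above sampling noise. Counts were filtered with filterByExpr (minimum count 10, minimum total 15), scaled by TMM and tested with edgeR 4.0.16 in R 4.3.3, DOX against PBS, with group as the only term. Tested on simulated data for this comparison (14681 genes), edgeR found 88% of 2-fold and 99% of 4-fold changes, and 7.43% of its calls were false. The simulation changed only a small share of genes, none of the lowest expressed, and drew the counts of each gene independently. Its rates need not hold for these data, where 27.5% of genes were called.

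Alternatives were DESeq2 1.42.0, its size factors, scaling by library size alone, no filter, limma 3.58.1 on log2(FPKM + 1) or log2(FPKM + 0.1) of the deposited values, a replicate block, and leaving out each library. All 32 members are described. Of the other lists up to 4 called genes in each direction, by smallest p, are named; some genes this rule names are not reported here. The members and lists were chosen with earlier results of these data known. Promoter windows came from RefSeq (GRCm38.p6) and gene positions from GENCODE M21 (GRCm38).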

Additional observations from a re-analysis of the deposited data

How the results depend on the processing

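Of the members called lower, 11 of 12 were called lower under all 14 alternatives, the exception being Pxmp4; of those called higher, 3 of 7 were (Abcd4, Acox2 and Hacl1). The 8 enzymes called lower and the 2 called higher kept their calls under each. Calls of lower members numbered 11 to 15, with 15 under size scaling and limma on filtered values, where Pex19, Slc25a17 and Acox3 were added. The enzyme median minus the peroxin median was -0.55 and ranged from -0.63 to -0.48. With libraries scaled by size alone, 4 members, 1 peroxin, 1 membrane protein and 2 other peroxisome genes were higher, 3429 of all genes were lower and 1028 higher, and the medians were -0.21 (peroxins) and -0.75 (enzymes). Log2(FPKM + 1) in limma gave 4, 1, 1, 2, 3202, 917, -0.19 and -0.75 in the same order, and log2(FPKM + 0.1) gave 4, 1, 1, 2, 3227, 948, -0.20 and -0.76. Log2(FPKM + 1) in limma with no filter gave 3 members, 0 peroxins (2 at an unadjusted p under 0.05; 3 in edgeR), 1 membrane protein and 1 other peroxisome gene higher, 537 of all genes higher, and medians of -0.19 and -0.75. With edgeR and no filter 3 other peroxisome genes were higher. Under size scaling and these 3 limma settings Pex7 was -0.01, Pex14 -0.03, Abcd2 -0.09 to -0.08 and Scp2 -0.10 in log2 fold change, where the values given in the report are above 0. Size scaling and these limma settings leave out the TMM factor, which was 1.02 to 1.08 in PBS and 0.933 to 0.97 in DOX libraries. The part of that factor in these shifts was not tested separately.

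Leaving out each library in turn gave 4 to 7 members, 1 to 3 peroxins, 1 to 2 membrane proteins and 2 to 4 other peroxisome genes higher. It gave 1 to 2 membrane proteins and 10 to 19 other peroxisome genes lower. Over all genes 1305 to 2348 were lower and 1208 to 2440 higher. The lowest counts came without PBS 1 for members and peroxins (4 and 1 higher) and without DOX 1 for membrane proteins lower (1). Membrane proteins higher numbered 1 without PBS 1, PBS 2 or DOX 1. The peroxin median ranged from -0.08 to 0.00, the latter without DOX 1, where Pex26 was also at 0.00. Over the 6 libraries left out, Pex26 ranged from -0.26 (without DOX 2) to 0.00 and Scp2 from -0.04 (without DOX 2) to 0.18 (without DOX 3). All genes lower numbered 1305 without PBS 2 and 1329 without DOX 3, and all genes higher 1233 without PBS 2, 1229 without PBS 3 and 1208 without DOX 3.

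Deviations of same-numbered libraries had correlations of 0.086, -0.073 and -0.134, and those of other pairs ran from -0.132 to 0.192. With 3 libraries a group, these values cannot show whether a number marks a shared day, litter or batch. The labels do not say what it marks. With the replicate block, 12 members were lower and 5 higher, 1 membrane protein and 2 other peroxisome genes were higher, and 17 of the 19 called members were still called. Depth was lowest for Pex10, at 104 to 228 counts a library.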
